A study of Mus musculus with 21 samples.

Results

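The integrated stress response genes described here were 10 genes that carry or execute the ATF4 program: *Atf4*, *Atf5*, *Ddit3*, *Trib3*, *Chac1*, *Sesn2*, *Ppp1r15a*, *Asns*, *Psat1* and *Phgdh*. They were chosen by name with earlier results of these data known, as were the related lists below. Their counts beside shares of all tested genes are therefore a description. Each symbol of the 10 genes matched 1 of the 51467 genes in the count tables through its Ensembl identifier. All 10 were among the 14518 genes that had at least 3 CPM (counts scaled to a common library total) in at least 3 libraries and were tested. The libraries came from V6.5 mouse embryonic stem cells (ESCs) grown with serum, LIF and the 2i inhibitors. There were 3 wild-type cultures and 4 cultures of *Ddx6* knockout (KO) cells, 2 from each of 2 clones. The clones were made with CRISPR-Cas9 from V6.5 cells, and each is a single clone. The effect of losing DDX6 cannot be told apart from a trait of a clone, or from another trait that both clones share. Each of the 7 cultures, wild type included, received 500 µM 4-thiouridine (4sU) for 30 min. Its RNA was split into a 4sU-labeled nascent fraction and total RNA, which gave 14 libraries. The comparison asks how nascent transcription, mRNA level and relative mRNA stability of these genes differ when DDX6, an RNA helicase of P-bodies and of mRNA decapping, is missing.

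In the integrated stress response, kinases that sense amino acid shortage, unfolded protein in the endoplasmic reticulum (ER), viral RNA or heme shortage phosphorylate the translation initiation factor eIF2. General translation then falls, while translation of *Atf4* mRNA rises through its upstream open reading frames. ATF4 is a bZIP transcription factor that binds C/EBP-ATF composite elements and switches on genes of amino acid synthesis, uptake and redox balance, and, under lasting stress, the CHOP branch. Counts of RNA measure neither eIF2 phosphorylation nor ATF4 protein.

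Total counts ranged from 2441639 to 3570192 in the 4sU libraries and from 5724179 to 7369651 in the total RNA libraries. A floor of 3 counts was 1.23 CPM in the smallest 4sU library and 0.524 CPM in the smallest total RNA library, and such floors cover counting error only. Every member lay above these floors, and the lowest values were 41 counts of *Phgdh* in a *Ddx6* KO 4sU library and 47 counts of *Ddit3* in a wild-type total RNA library. The targeted gene, *Ddx6*, stood at 333 to 391 CPM in wild-type total RNA and at 21.5 to 67.7 CPM in *Ddx6* KO total RNA (log2 fold change -3.12, adjusted p = 9.22e-06 by the quasi-likelihood test of edgeR). Its 4sU signal was 242 to 270 CPM in wild type and 145 to 231 CPM in *Ddx6* KO and did not pass the test (log2 fold change -0.41, adjusted p = 0.348). Summed over 8 ESC markers, total RNA reached 4894 to 5025 CPM in wild type and 4808 to 4970 CPM in *Ddx6* KO, and none of them had a mean under 1 CPM. Single ESC markers moved nonetheless, with 4 of 8 higher and 2 lower in total RNA, among them *Nanog* (log2 fold change 0.59, on chromosome 6) and *Dppa5a* (-0.85). Of all tested genes, 19.5% were higher and 31.0% lower in total RNA. Summed over 7 feeder fibroblast markers it reached 12.2 to 15.9 CPM and 15.7 to 17.6 CPM, with *Col1a2*, *Col3a1*, *Fap* and *Postn* under 1 CPM on average in both genotypes, and 4 of the 7 were at 0 in all wild-type total RNA libraries and 2 in all *Ddx6* KO ones. Summed over 7 primitive endoderm markers it reached 8.68 to 14.4 CPM and 12.2 to 18.3 CPM, with *Gata6*, *Sox7* and *Foxa2* under 1 CPM on average in both genotypes and *Sox17* in *Ddx6* KO. All 3 tested feeder markers passed in total RNA (*Thy1* 1.47, *Col1a1* 0.97 and *Pdgfrb* -0.94), beside 19.5% and 31.0% of all tested genes. So did 2 of 3 tested primitive endoderm markers (*Dab2* 0.74 and *Gata4* 0.65). The part of these cells in the values of the members was not tested.

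CPM values in the text are counts scaled to effective library sizes from TMM, the scaling used in the fits, so that levels and fold changes share a scale. A gene is said to rise or fall when its adjusted p was below 0.05, and log2 fold changes are *Ddx6* KO relative to wild type. All members are protein-coding genes, and they lie on 8 chromosomes of GRCm38. *Chac1* (ENSMUSG00000027313) is on chr2:119351229-119354381 and *Trib3* on the same chromosome. *Atf5* and *Ppp1r15a* share chromosome 7, *Atf4* (ENSMUSG00000042406) is on chr15:80255184-80257541, and *Asns* (ENSMUSG00000029752) is on chr6:7675169-7693254.

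The C/EBP-ATF element through which ATF4 acts contains the core TGATGNAA, where N is any base. This core was searched on both strands in the 250 bases before each RefSeq transcription start of GRCm38.p6. All 10 members had promoter windows, 12 in all, and a match occurred in 2 windows of 2 genes, *Asns* and *Chac1*. Of all RefSeq genes, 3.91% had a match (1056 of 27025). Both stretches, the only matches in these windows, are shown with the match in capitals.
Asns: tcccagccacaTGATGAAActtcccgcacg
Chac1: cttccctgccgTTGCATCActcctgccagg
The *Asns* stretch is chr6:7693214-7693243 on the minus strand. Its match starts 23 bases before the RefSeq start, and in Gencode M21, where the gene starts further upstream, the stretch falls in the UTR of exon 1. The *Chac1* stretch is chr2:119351038-119351067 on the plus strand, outside annotated genes. Its match lies on the opposite strand and begins 193 bases before the start. A match is a description of the letters, and the absence of one in these windows says nothing about elements elsewhere.

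Nascent RNA of 9 of the 10 members fell in *Ddx6* KO cells and that of none rose. Among all tested genes 21.0% fell and 20.6% rose. The median log2 fold change of the members was -0.68, and that of all tested genes was 0.00. The largest fall was that of *Chac1*, and *Asns* was the exception. In 8 of 10 members all 4 *Ddx6* KO cultures lay on 1 side of all 3 wild-type cultures, which held for 41.7% of tested genes. With the further condition of an absolute log2 fold change above 1, *Chac1* and *Phgdh* were called, against 10.9% of tested genes. In bulk RNA, fewer cells expressing a gene and less RNA per cell cannot be told apart.

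Among the transcription factors and regulators, *Atf4* itself had nascent levels of 1469, 1545 and 1365 CPM in wild type, 999 and 995 CPM in clone 1, and 939 and 1123 CPM in clone 2. Every *Ddx6* KO culture lay below every wild-type culture, and the log2 fold change was -0.53 ± 0.06 (SE; edgeR adjusted p = 6.30e-12). *Atf5*, a close bZIP relative that is controlled by upstream open reading frames like *Atf4*, had 62.1, 66.0 and 59.8 CPM in wild type, 39.6 and 41.5 CPM in clone 1, and 30.1 and 52.8 CPM in clone 2. Again the groups did not overlap, and clone 2 held both the lowest and the highest *Ddx6* KO culture (log2 fold change -0.60 ± 0.12, edgeR adjusted p = 3.76e-05). *Ddit3* encodes CHOP, the bZIP factor of the pro-apoptotic arm. It had 39.2, 51.4 and 32.8 CPM in wild type, 23.8 and 26.2 CPM in clone 1, and 25.9 and 35.2 CPM in clone 2. Here the groups overlapped, because the highest clone 2 culture exceeded the lowest wild-type culture. The fall of 0.56 ± 0.15 on the log2 scale passed (edgeR adjusted p = 0.00143) but was lost without wild-type culture 2, the highest (-0.36, edgeR adjusted p = 0.0896), and with the 4sU re-sequencing run alone (-0.43, edgeR adjusted p = 0.108). A second gene annotated as *Ddit3* overlaps it on the same strand in Gencode M21 and has no row in the tables. *Trib3*, a pseudokinase induced by ATF4 and CHOP that dampens the program, had 70.5, 78.4 and 76.0 CPM in wild type, 40.2 and 35.8 CPM in clone 1, and 57.2 and 39.4 CPM in clone 2. The groups did not overlap, and nascent *Trib3* was 1.74-fold lower.

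Of the effectors, *Chac1* degrades glutathione and is among the most strongly ATF4-dependent genes known. Its nascent levels were 221, 234 and 206 CPM in wild type, 34.8 and 33.2 CPM in clone 1, and 39.4 and 44.9 CPM in clone 2. The highest *Ddx6* KO culture was far below the lowest wild-type culture, and the level was 5.75-fold lower (log2 fold change -2.52 ± 0.09, edgeR adjusted p = 7.97e-30). *Sesn2* encodes sestrin 2, a leucine sensor that restrains mTORC1. It had 379, 351 and 422 CPM in wild type, 224 and 235 CPM in clone 1, and 233 and 205 CPM in clone 2. The 4 *Ddx6* KO cultures kept within a narrow range below wild type, 1.71-fold lower on average. The gene Gm12981 overlaps *Sesn2* on the same strand. *Ppp1r15a* encodes GADD34, which recruits protein phosphatase 1 to eIF2 and ends the response. Its nascent levels were 242, 253 and 204 CPM in wild type, 169 and 166 CPM in clone 1, and 148 and 172 CPM in clone 2. The groups did not overlap, and the fall was the smallest of the 9, at 0.51 ± 0.07 on the log2 scale (edgeR adjusted p = 3.12e-08).

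Among the amino acid synthesis enzymes, *Phgdh* and *Psat1* catalyze the first steps of serine synthesis from a glycolytic intermediate. Nascent *Phgdh* was 30.9, 30.6 and 27.4 CPM in wild type, 13.6 and 14.7 CPM in clone 1, and 12.3 and 12.1 CPM in clone 2. This was 2.25-fold lower without overlap, from 70 to 84 counts per wild-type library and 41 to 48 per *Ddx6* KO library. Nascent *Psat1* was 197, 200 and 219 CPM in wild type, 113 and 117 CPM in clone 1, and 139 and 121 CPM in clone 2, which was 1.68-fold lower without overlap. *Asns* makes asparagine. Its nascent levels were 708, 748 and 767 CPM in wild type, 763 and 773 CPM in clone 1, and 764 and 735 CPM in clone 2. These ranges overlapped, and the log2 fold change of 0.03 ± 0.05 did not pass (edgeR adjusted p = 0.639).

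**Figure D1:**
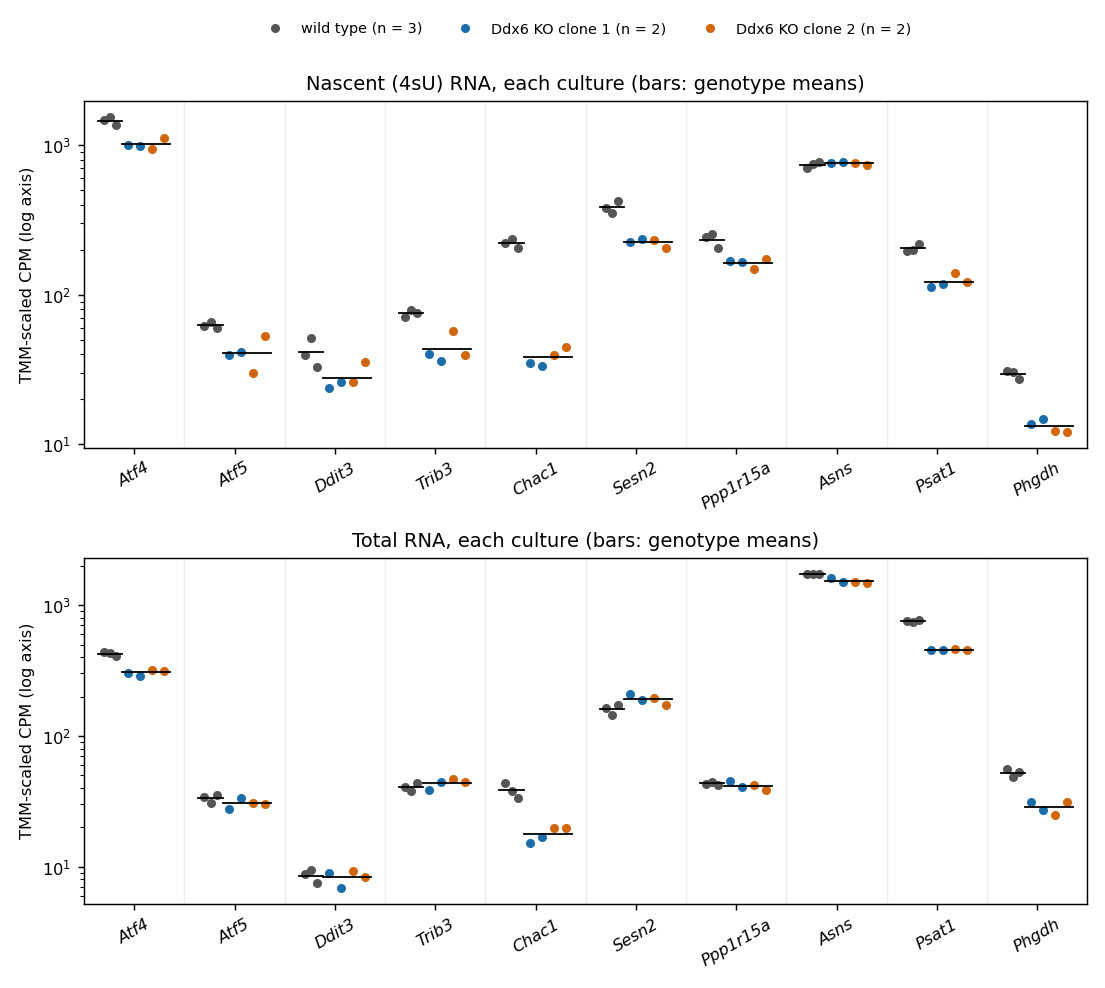
Level of each integrated stress response gene in each culture, in TMM-scaled CPM on a log axis, for nascent 4sU RNA (upper panel) and total RNA (lower panel). Points are cultures and bars are genotype means. In nascent RNA the *Chac1* cultures of *Ddx6* KO reach at most 44.9 CPM and those of wild type at least 206 CPM, while the *Asns* cultures overlap.

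In total RNA fewer members were lower: 5 of 10 fell, 1 rose and 4 did not pass. Of all tested genes 31.0% fell and 19.5% rose, so the members' share of falls stood nearer to the background than in nascent RNA. The median of the members was -0.15, and that of all tested genes was -0.10. Groups lay apart in 5 of 10 members and in 52.4% of tested genes. With an absolute log2 fold change above 1 as well, *Chac1* alone was called, against 10.1% of tested genes.

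The 5 that fell were *Atf4*, *Chac1* and the enzymes. Total *Atf4* was 436, 427 and 407 CPM in wild type, 303 and 287 CPM in clone 1, and 320 and 316 CPM in clone 2. All *Ddx6* KO cultures were below all wild-type cultures, by 1.38-fold on average (edgeR adjusted p = 3.85e-10). Total *Chac1* was 43.7, 37.8 and 33.2 CPM in wild type, 15.1 and 16.9 CPM in clone 1, and 19.7 CPM in both clone 2 cultures. It was 2.13-fold lower, a smaller difference than in nascent RNA. Total *Psat1* was 755, 742 and 775 CPM in wild type, 454 and 453 CPM in clone 1, and 463 and 455 CPM in clone 2. The *Ddx6* KO cultures differed little from each other, and the level was 1.66-fold lower. Total *Phgdh* was 55.5, 48.1 and 53.1 CPM in wild type, 31.2 and 27.3 CPM in clone 1, and 24.6 and 31.0 CPM in clone 2, or 1.84-fold lower. *Asns* had the highest total level of the members. It stood at 1745, 1731 and 1740 CPM in wild type, 1616 and 1517 CPM in clone 1, and 1512 and 1476 CPM in clone 2. The groups did not overlap, and the fall was 0.18 ± 0.05 on the log2 scale (edgeR adjusted p = 0.00123). It was lost with clone 1 alone (-0.13), without scaling beyond library size (-0.03), with separate TMM for each assay (-0.09) and with no filter beyond 1 count (-0.08), where edgeR gave adjusted p of 0.0579, 0.673, 0.111 and 0.322.

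*Sesn2* was the only member whose total RNA rose. It had 164, 145 and 172 CPM in wild type, 208 and 188 CPM in clone 1, and 196 and 171 CPM in clone 2. The lowest clone 2 culture fell just below the highest wild-type culture, and the log2 fold change was 0.25 ± 0.07 (edgeR adjusted p = 0.00150). The remaining 4 members did not pass and their groups overlapped. Total *Atf5* ranged from 30.5 to 35.2 CPM in wild type and from 27.7 to 33.7 CPM in *Ddx6* KO (log2 fold change -0.11 ± 0.11). Total *Ddit3*, the lowest of the members, ranged from 7.50 to 9.33 CPM and from 6.80 to 9.18 CPM, respectively (-0.04 ± 0.18). Total *Trib3* ranged from 37.7 to 43.9 CPM and from 38.8 to 46.4 CPM (0.10 ± 0.10). Total *Ppp1r15a* ranged from 42.1 to 44.7 CPM and from 38.5 to 45.3 CPM (-0.06 ± 0.09). Summed over the 10 genes, nascent RNA reached 3378 to 3558 CPM in wild type and 2388 to 2540 CPM in *Ddx6* KO, and total RNA reached 3253 to 3325 CPM and 2591 to 2748 CPM. *Atf4* and *Asns* make up most of these sums.

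**Figure D2:**
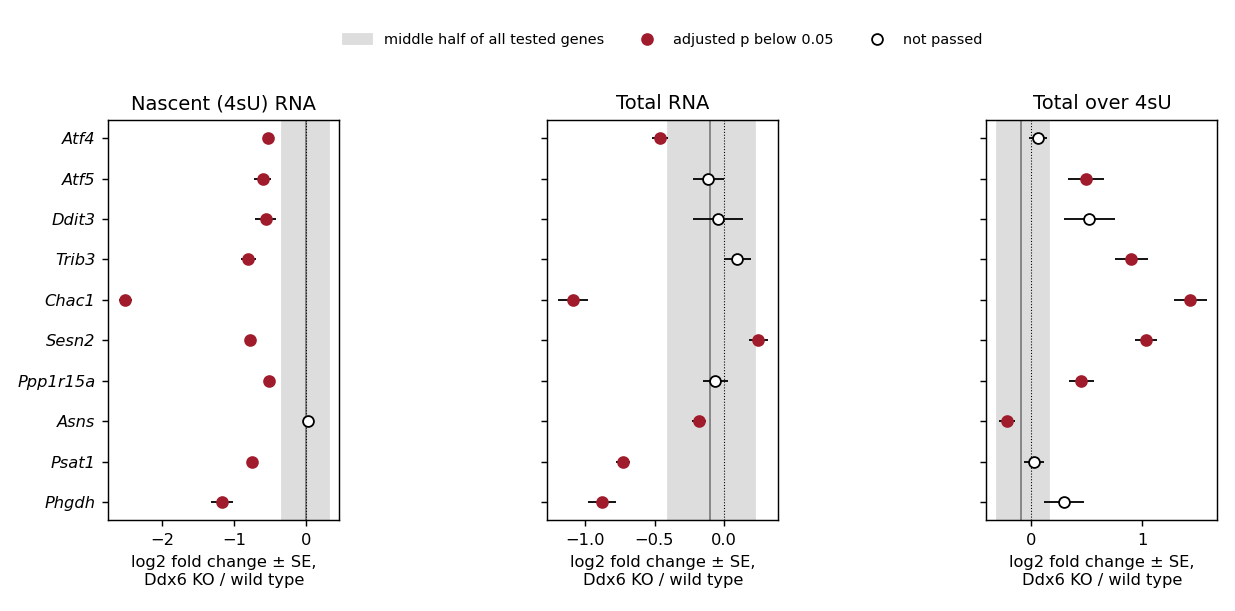
Log2 fold changes of the 10 genes in *Ddx6* KO relative to wild type with their standard errors, for nascent RNA, total RNA and the total over 4sU ratio. Filled points had an adjusted p below 0.05, and the grey band and line are the range between quartiles and the median of all tested genes. In nascent RNA 9 filled points lie to the left of the band, and in the ratio 5 filled points lie to the right of it.

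The ratio of total RNA to 4sU RNA serves in this study as relative mRNA stability, on the assumption that levels are steady, so that a transcript with much total RNA for its nascent RNA is long-lived. In wild type the members ranged from low to high ratios among the tested genes, whose log2 ratio had a median of 0.07 and quartiles of -1.11 and 0.87. The 3 enzymes lay above 0. *Psat1* had the highest ratio (1.88 ± 0.06, SD, n = 3), above that of 96.2% of tested genes, followed by *Asns* (1.23 ± 0.06) and *Phgdh* (0.81 ± 0.15). The other 7 members lay below 0. *Chac1* had the lowest ratio (-2.52 ± 0.17), and only 9.06% of tested genes had a lower one. *Ppp1r15a* (-2.41 ± 0.13) and *Ddit3* (-2.19 ± 0.18) were close to it, and the cultures of neighbours among these 3 overlapped. *Atf4* (-1.78 ± 0.06) and *Sesn2* (-1.26 ± 0.04) stood apart from their neighbours, while *Atf5* (-0.91 ± 0.18) and *Trib3* (-0.88 ± 0.15) overlapped each other. These wild-type orders were not tested.

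Levels per kilobase of exonic length come from the same counts as the ratio, and their order differed between nascent and total RNA. In wild-type nascent RNA, *Atf4* led with 847 ± 52.5 CPM per kb (SD, n = 3), ahead of *Asns* (343 ± 13.8) and *Chac1* (134 ± 8.69). In wild-type total RNA, *Asns* led with 804 ± 3.44 CPM per kb, ahead of *Psat1* (258 ± 5.66) and *Atf4* (246 ± 8.69), whose cultures overlapped. *Chac1* had 23.4 ± 3.21 CPM per kb in total RNA, below *Sesn2* and close to *Phgdh* and *Trib3*, with which it overlapped.

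In *Ddx6* KO cells the ratio of 5 members rose and that of 1 fell, against 3.79% and 8.58% of tested genes. The median of the members was 0.47, and that of all tested genes was -0.09. Groups lay apart in 6 of 10 members and in 22.9% of tested genes. With an absolute log2 fold change above 1 as well, *Chac1* and *Sesn2* were called, against 1.08% of tested genes. The 4sU libraries enter the nascent comparison and the ratio with opposite signs, so a low 4sU value lowers the first and raises the second, and the 2 comparisons are not independent.

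The *Chac1* log2 ratio was -2.32, -2.61 and -2.61 in wild type, -1.18 and -0.96 in clone 1, and -0.99 and -1.17 in clone 2. It was higher in every *Ddx6* KO culture, by 1.43 ± 0.15 (SE; edgeR adjusted p = 1.50e-10). That of *Sesn2* was -1.21, -1.27 and -1.29 in wild type, -0.11 and -0.32 in clone 1, and -0.25 and -0.26 in clone 2. The difference of 1.03 ± 0.10 was many times the spread in either genotype (edgeR adjusted p = 2.97e-11). That of *Trib3* was -0.80, -1.05 and -0.78 in wild type, -0.05 and 0.30 in clone 1, and -0.30 and 0.18 in clone 2, higher by 0.90 ± 0.15 without overlap. *Ppp1r15a* had -2.48, -2.49 and -2.26 in wild type, -1.89 and -2.02 in clone 1, and -1.81 and -2.14 in clone 2. It was higher by 0.45 ± 0.11 without overlap (edgeR adjusted p = 0.00421), and with the 4sU re-sequencing run alone the call was lost (0.35, edgeR adjusted p = 0.0904). *Atf5* had -0.87, -1.10 and -0.76 in wild type, -0.51 and -0.30 in clone 1, and 0.04 and -0.81 in clone 2. The last clone 2 culture lay among the wild-type cultures, and the rise of 0.49 ± 0.16 passed narrowly (edgeR adjusted p = 0.0361). It no longer passed in 7 of 20 alternative fits, among them those without wild-type culture 1 or 2, without clone 1 culture 2 and without clone 2 culture 1, where the value was 0.51, 0.39, 0.45 and 0.37 and adjusted p was 0.0880, 0.221, 0.101 and 0.149 by edgeR.

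*Asns* was the member whose ratio fell. Its log2 ratio was 1.30, 1.21 and 1.18 in wild type, 1.08 and 0.97 in clone 1, and 0.98 and 1.01 in clone 2. The groups did not overlap, and the fall of 0.22 ± 0.07 passed narrowly (edgeR adjusted p = 0.0332). It was lost in 11 of 19 alternative fits, including TMM within each assay (-0.13, edgeR adjusted p = 0.286), and in 5 of the 7 fits that left out a culture. For the other 4 members the ratio did not pass. *Ddit3* had a difference of 0.52 ± 0.23 with groups that did not overlap (edgeR adjusted p = 0.141), where the total RNA libraries held 47 to 70 counts each. *Phgdh* had 0.29 ± 0.18, *Atf4* 0.06 ± 0.08 and *Psat1* 0.02 ± 0.09.

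The 4sU samples were sequenced in 2 runs, so that both comparisons could be made from separate reads. With the single-end run alone for nascent RNA and the re-sequencing run alone for the ratio, *Chac1* had log2 fold changes of -2.58 and 1.33, *Sesn2* -0.77 and 1.04, *Trib3* -0.93 and 0.68, and *Atf5* -0.48 and 0.72. All these values passed. For *Ppp1r15a* the values were -0.55 and 0.35, of which the second did not pass. With the runs exchanged, *Chac1*, *Sesn2*, *Trib3* and *Ppp1r15a* passed in both comparisons, whereas the ratio of *Atf5* did not (0.37 ± 0.17, edgeR adjusted p = 0.179). The cultures and their labeling are the same in both runs, so a low 4sU value that arose there still enters both comparisons. Separate reads keep only the counting error of the reads apart.

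**Figure D3:**
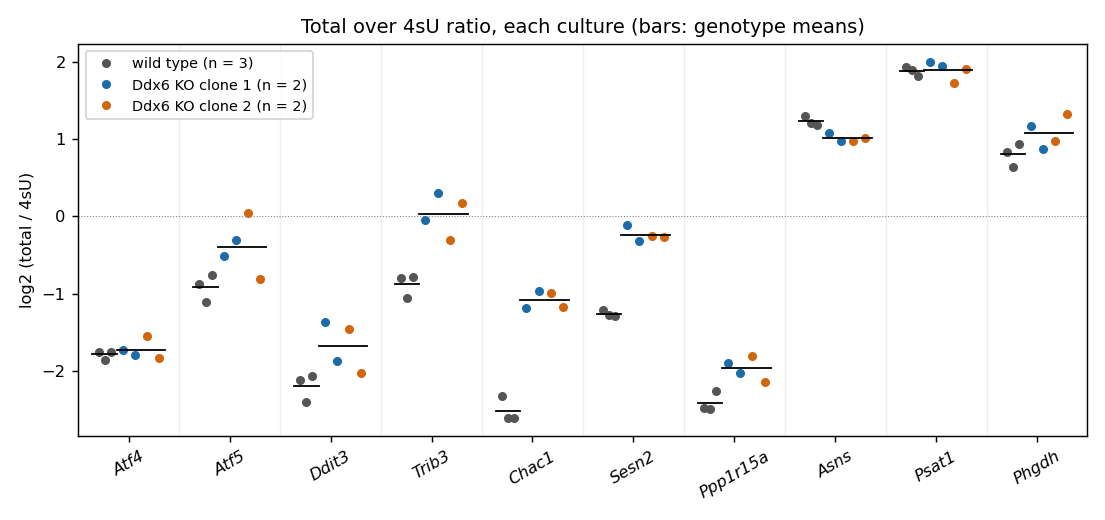
Log2 ratio of total to 4sU RNA of each gene in each culture, scaled by TMM with 0.5 CPM added. Points are cultures and bars are genotype means. The 3 enzymes lie above 0 in all cultures, and *Chac1* and *Sesn2* are higher in all 4 *Ddx6* KO cultures, while *Atf4* and *Psat1* overlap between genotypes.

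Scaling moved the members' counts little. In the 4sU libraries the scaling factors were 0.9228 to 0.9293 in wild type and 1.063 to 1.072 in *Ddx6* KO. In total RNA they were 0.9296 to 0.9437 and 1.035 to 1.047. The spike-in rows were all at 0, so rises and falls are relative to the other genes. A change shared by all genes would not be seen. With TMM within each assay, 9 members fell and none rose in nascent RNA, 4 fell and 1 rose in total RNA, and for the ratio none fell and 5 rose. Of all 14518 tested genes, 3034 fell and 3006 rose in nascent RNA, 3495 and 3606 in total RNA, and 577 and 734 for the ratio. With library size only, 9 fell and 1 rose in nascent RNA, 4 fell and 2 rose in total RNA, and 1 fell and 4 rose for the ratio. Of all tested genes, 1838 fell and 5285 rose in nascent RNA, 2814 and 4277 in total RNA, and 1820 and 462 for the ratio. Scaling by library size only moved the median of all tested genes in nascent RNA from 0.00 to 0.21. The additional rises were *Asns* in nascent RNA (0.24, against that median of 0.21) and *Trib3* in total RNA (0.26, against a median of 0.06).

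The clones were compared directly to see whether 1 of them carried the differences. None of the 10 members differed between clone 2 and clone 1 at an adjusted p below 0.05 by edgeR, DESeq2 or limma-voom in nascent RNA, total RNA or the ratio. By edgeR, 0.172%, 0.296% and 0.00689% of all tested genes did. In nascent RNA the largest log2 differences of the members were those of *Trib3* (0.33 ± 0.15) and *Chac1* (0.31 ± 0.15), both higher in clone 2. Their unadjusted p was 0.0279 and 0.0373 by edgeR. The share of all tested genes with such unadjusted values was not counted. Against wild type, 9 members fell in nascent RNA with clone 1 alone and 9 with clone 2 alone. Of all tested genes, 2578 of 14094 and 2570 of 14031 fell in these fits. In total RNA 4 fell and 1 rose with clone 1 alone, and 5 fell and 1 rose with clone 2 alone. Of all tested genes, 3862 fell and 2527 rose with clone 1 alone, and 3776 fell and 2462 rose with clone 2 alone. The ratio of 5 rose with clone 1 alone and of 4 with clone 2 alone, where that of *Atf5* did not pass (0.46, edgeR adjusted p = 0.154), and with either clone alone none fell. Over all tested genes the ratio of 374 rose and of 697 fell with clone 1 alone. With clone 2 alone these numbers were 395 and 716.

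*Asns* lies on chromosome 6, whose genes stood apart from the rest. Over 735 tested genes of this chromosome the median log2 fold change was 0.53 in nascent RNA and 0.43 in total RNA, whereas over the 13783 other genes it was -0.02 and -0.12. *Asns*, at 0.03 and -0.18, lay 0.50 and 0.62 below the chromosome medians, and 17.4% and 14.4% of the genes of chromosome 6 had lower values. The ratio of chromosome 6 genes had a median of -0.13, close to the -0.09 of other genes. No other member lies on chromosome 6. The part of the chromosome in the *Asns* values was not tested.

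**Figure D4:**
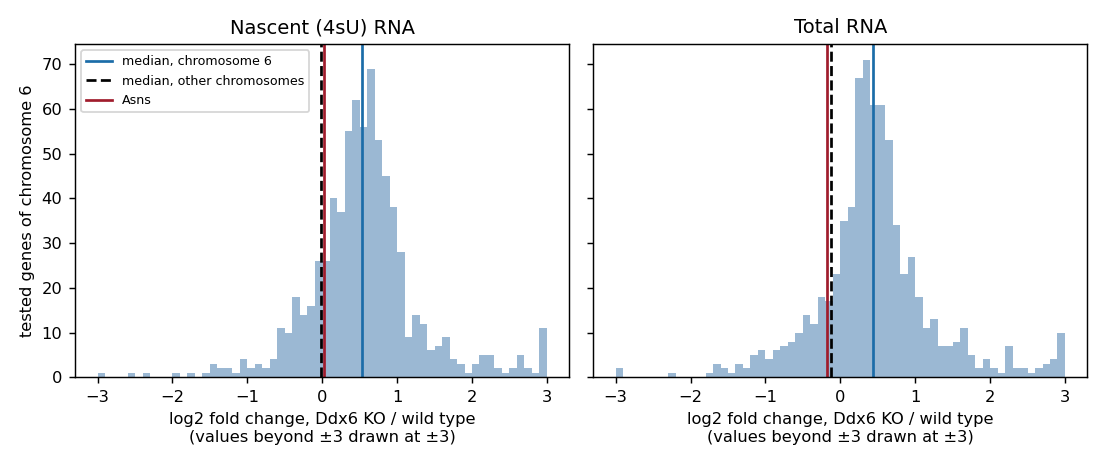
Distribution of log2 fold changes of the 735 tested genes on chromosome 6 in nascent and total RNA, with the chromosome median, the median of other chromosomes and *Asns* as lines. *Asns* lies close to the median of the other chromosomes and below the median of chromosome 6 in both panels.

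Outside the 10 genes, the list with the lowest median in nascent and in total RNA was that of enzymes of serine, one-carbon, proline and transsulfuration metabolism, many of them known ATF4 targets. Nascent RNA of 15 of 20 fell and of 2 rose (median -0.36), and total RNA of 16 fell and of 4 rose (median -0.53). Among all tested genes, 21.0% fell and 20.6% rose in nascent RNA and 31.0% fell and 19.5% rose in total RNA, so the rises were no more frequent than the background or close to it. With library size only, 8 fell in nascent RNA, where 1838 of all 14518 tested genes fell. *Pycr1*, a mitochondrial enzyme of proline synthesis, fell in nascent RNA by 1.72 ± 0.13 and in total RNA by 1.30 ± 0.08 on the log2 scale. *Pck2*, the mitochondrial phosphoenolpyruvate carboxykinase, fell in nascent RNA by 1.67 ± 0.11, and its ratio rose by 1.07 ± 0.13. *Cbs*, the first enzyme of transsulfuration, fell in total RNA by 1.52 ± 0.10. Among the rises were those of *Glul*, the glutamine synthetase (0.63 ± 0.08 nascent and 0.96 ± 0.06 total), and *Mthfd2l*, a mitochondrial folate enzyme expressed near the floor (1.60 ± 0.42 total, at 0.370 to 1.53 CPM in wild type). For the ratio 4 rose and 3 fell, beside 3.79% and 8.58% of all tested genes. Among these enzymes were *Mthfd2* on chromosome 6, which rose by 0.36 ± 0.09, and *Shmt1*, which fell by 0.42 ± 0.11.

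Of 16 tested amino acid transporters, nascent RNA of 7 fell and of 3 rose (median -0.22), and total RNA of 5 fell and of 4 rose (median 0.08). Of all tested genes, 21.0% fell and 20.6% rose in nascent RNA. In total RNA the transporters' counts stood near the shares of all tested genes (31.0% fell and 19.5% rose). Their rises in total RNA became 8 with library size only and 7 with separate TMM for each assay. In these fits 4277 and 3606 of all 14518 tested genes rose. The neutral amino acid exchangers *Slc1a4* and *Slc1a5*, both known ATF4 targets, fell in nascent RNA by 1.05 ± 0.13 and 1.03 ± 0.07. Total *Slc1a4* fell by 0.75 ± 0.09, and the ratio of *Slc1a5* rose by 0.56 ± 0.09. Total *Slc1a3*, a glutamate transporter, fell by 1.35 ± 0.24. The taurine transporter *Slc6a6*, on chromosome 6, rose by 0.81 ± 0.07 in nascent and 0.63 ± 0.06 in total RNA. *Slc7a7* rose in nascent RNA (0.70 ± 0.22) and the cystine transporter *Slc7a11* in total RNA (1.10 ± 0.33), the latter from 1.48 to 2.46 CPM in wild type to 2.22 to 4.93 CPM. The ratio of 5 rose and of none fell, beside 3.79% and 8.58% of all tested genes. The largest of these rises was that of the cationic amino acid transporter *Slc7a3* (0.80 ± 0.12).

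Of 21 other tested genes known as ATF4 effectors, 9 fell and 3 rose in nascent RNA (median -0.26), and 10 fell and 4 rose in total RNA (median -0.29). Of all tested genes 21.0% fell and 20.6% rose in nascent RNA and 31.0% and 19.5% in total RNA. With library size only, 5 of this list rose in nascent RNA, where 5285 of all 14518 tested genes rose. *Stc2*, a secreted glycoprotein induced by ER stress, fell in nascent RNA by 1.72 ± 0.20 and in total RNA by 1.01 ± 0.17. *Ddit4*, an inhibitor of mTORC1, fell in nascent RNA by 1.41 ± 0.08, and its ratio rose by 0.89 ± 0.12. *Rcan1*, a calcineurin inhibitor, fell in total RNA by 0.96 ± 0.10. *Sqstm1*, the autophagy receptor p62, rose by 0.91 ± 0.06 and 0.57 ± 0.06, and *Trib1*, a relative of *Trib3*, by 0.68 ± 0.08 and 0.58 ± 0.10, in nascent and total RNA. For the ratio 3 rose and 4 fell, beside 3.79% and 8.58% of all tested genes. The ratio of *Vegfa* rose by 0.50 ± 0.11, and those of *Klhl24* and *Sesn1* fell by 0.49 ± 0.14 and 0.58 ± 0.15.

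Of 22 tested genes for eIF2 kinases and their regulators, eIF2, its phosphatase and its exchange factor eIF2B, 6 rose and 6 fell in nascent RNA (median 0.03), and 3 rose and 8 fell in total RNA (median -0.09), near the shares of all tested genes (20.6% and 21.0%, and 19.5% and 31.0%). With library size only, 12 rose in nascent RNA and 7 in total RNA, where 5285 and 4277 of all 14518 tested genes rose. *Eif2s2*, the beta subunit of eIF2, fell by 0.92 ± 0.06 in nascent and 1.12 ± 0.06 in total RNA. *Eif2b5*, the catalytic subunit of eIF2B, fell by 0.90 ± 0.07 and 1.18 ± 0.06. The kinase genes *Eif2ak2* (PKR) and *Eif2ak3* (PERK, on chromosome 6) rose in total RNA by 0.60 ± 0.09 and 0.54 ± 0.08. *Impact*, an inhibitor of the kinase GCN2, and *Nck1*, an adaptor, rose in nascent RNA by 1.17 ± 0.18 and 0.80 ± 0.11. The ratio of *Impact* fell by 0.97 ± 0.24 and that of *Eif2a* by 0.65 ± 0.11. *Eif2a*, also on this list, encodes the separate factor eIF2A and not a subunit of eIF2. The ratio of *Ppp1r15b*, the constitutive counterpart of *Ppp1r15a*, rose by 0.54 ± 0.07 and that of *Eif2ak3* by 0.41 ± 0.13. In all, the ratio of 2 rose and of 5 fell, beside 3.79% and 8.58% of all tested genes. *Gcn1* was not matched by its symbol and is not counted.

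Of 14 tested bZIP partners and stress transcription factors, 7 rose and 4 fell in nascent RNA (median 0.05) and in total RNA (median 0.18), beside 20.6% and 21.0% of all tested genes in nascent RNA and 19.5% and 31.0% in total RNA. With library size only, 2 fell in nascent RNA and 1 in total RNA, where 1838 and 2814 of all 14518 tested genes fell. *Junb*, an AP-1 subunit, rose by 1.28 ± 0.10 and 2.03 ± 0.11, and *Jun* by 1.14 ± 0.13 in total RNA. *Nupr1*, a stress-induced chromatin protein downstream of ATF4, fell in nascent RNA by 1.30 ± 0.11, and its ratio rose by 0.96 ± 0.15. *Jdp2*, a repressor of AP-1, fell in total RNA by 0.78 ± 0.13. *Cebpa*, *Cebpb* and *Cebpd* were low, between 0.903 and 10.5 CPM. *Cebpa* fell (1.51 ± 0.40 nascent and 0.94 ± 0.35 total), nascent *Cebpd* rose (0.88 ± 0.34) and the ratio of *Cebpb* rose (1.21 ± 0.37), but total *Cebpa*, nascent *Cebpd* and the ratio of *Cebpb* no longer passed in some of the fits that left out 1 culture. The ratio of 4 genes rose and of none fell, beside 3.79% and 8.58% of all tested genes. *Batf2* and *Fosl1* of this list did not pass the filter, nor did *Slc36a4* of the transporters and *Fgf21* of the other effectors.

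Genes of the XBP1 and ATF6 branches of the ER unfolded protein response, act beside the ATF4 branch. Of 24 tested, 3 rose and 5 fell in nascent RNA (median -0.05), 4 rose and 6 fell in total RNA (median -0.01), and 3 rose and 1 fell for the ratio. These counts stood near or below the shares of all tested genes in nascent and total RNA. For the ratio, 3.79% of all tested genes rose and 8.58% fell. With library size only, 10 rose and 3 fell in nascent RNA, beside 5285 and 1838 of all 14518 tested genes. No direction is therefore given for the list. *Herpud1*, an ER-associated degradation gene that also responds to ATF4, fell in nascent RNA by 1.21 ± 0.08, and its ratio rose by 1.06 ± 0.11. *Manf* fell in nascent RNA by 0.45 ± 0.08. The chaperone gene *Hspa5* had a higher ratio (0.47 ± 0.08), whereas *Canx* had a lower one and lower total RNA (-0.51 ± 0.11 and -0.35 ± 0.07), and total *Hsp90b1* fell by 0.30 ± 0.06. The rises of *Pdia4* (0.77 ± 0.07 nascent and 0.56 ± 0.06 total) and *Edem1* (0.73 ± 0.10 and 0.61 ± 0.07) were those of genes on chromosome 6.

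**Figure D5:**
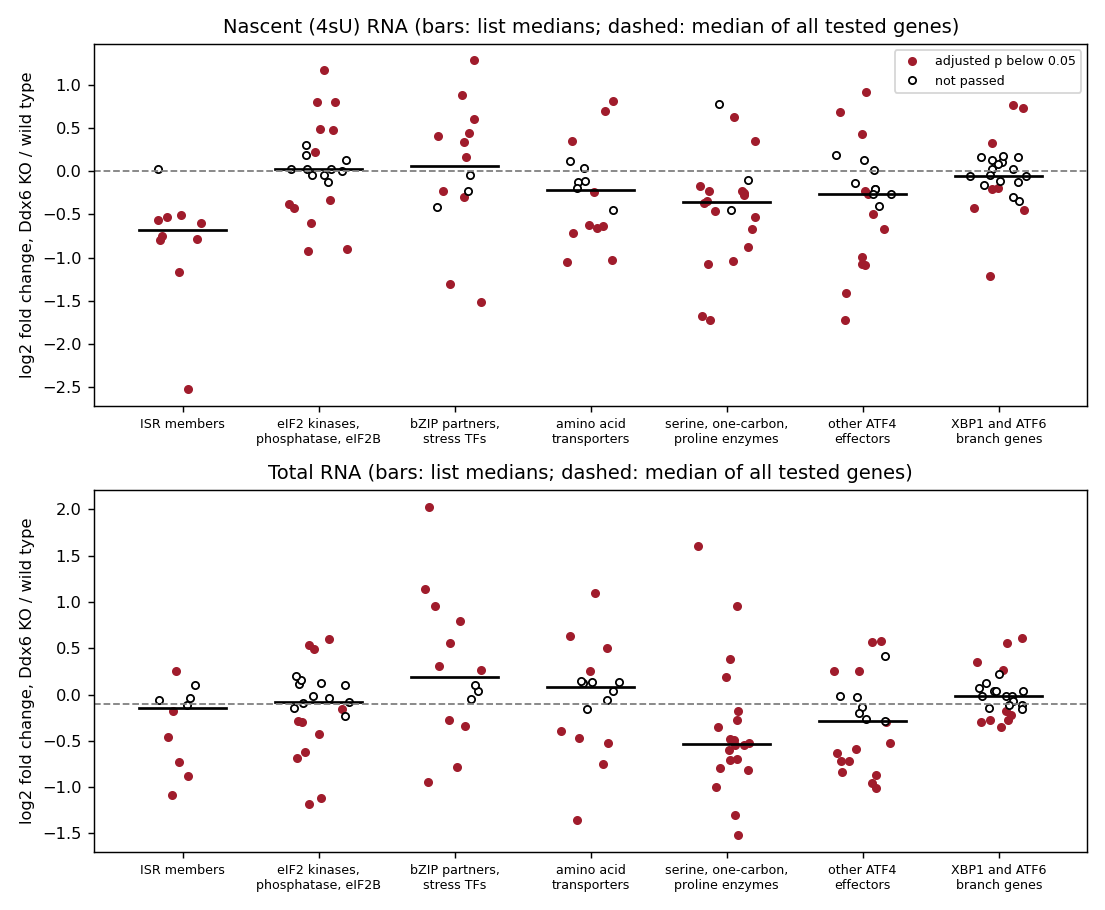
Log2 fold changes of the integrated stress response genes and of 6 related lists in nascent and total RNA. Each point is a tested gene, filled where its adjusted p was below 0.05, black bars are list medians and the dashed line is the median of all tested genes. The members and the serine, one-carbon and proline enzymes lie mostly below the dashed line in nascent RNA, while the eIF2 list lies on both sides.

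The tested genes most like *Atf4* over the 14 libraries, by the Euclidean distance between mean-centered log2 levels, were *Naca* (0.365), a subunit of the nascent polypeptide-associated complex, *Hspa8* (0.422), a constitutive HSP70 chaperone, and *Rbm14* (0.459), an RNA-binding protein. The median distance over tested genes was 3.84. *Naca* had log2 fold changes of -0.61 in nascent and total RNA, *Hspa8* of -0.53 and -0.44, and *Rbm14* of -0.34 and -0.28, beside -0.53 and -0.46 for *Atf4*.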

How the data were processed

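Per the submitters' processing notes and the study's methods, reads were trimmed with cutadapt 1.14, mapped uniquely to mm10 with STAR 2.5.3a and counted per gene with featureCounts 1.5.3. The authors deposited raw counts per gene for each library, and gene lengths in bases beside them. The 4sU libraries have a single-end count and a re-sequencing count, which were summed here as in the study. The 92 spike-in rows, all at 0, were left out. The members and the gene lists were chosen with earlier results of these data known.

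The filter kept genes that reached 3 CPM in 3 or more libraries. Counts were scaled by TMM over 14 libraries and fitted with edgeR 4.0.16 (R 4.3.3) by robust quasi-likelihood, with genotype or clone, assay and their interaction, on all kept genes, with Benjamini-Hochberg adjustment. The test for total over 4sU is the interaction. In place of the planned CPM of library totals, TMM-scaled CPM are printed. Standard errors are the log2 fold change divided by the root of F. The fits were also run on simulated counts with the same mean profile in every library before planted changes. Nascent and total RNA differ in these data, so nothing here rests on that run. DESeq2 1.42.0 and limma 3.58.1 served as alternatives. Nothing states that the cultures were independent beyond their numbers, so p-values measure the spread between these cultures.

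The 4sU and total RNA of a culture came from 1 extraction, which pairs them. Their deviations from the group means correlated by 0.0105 to 0.122 over 10258 genes. Besides the members and *Ddx6*, the text names up to 2 passing genes with the largest rise and fall per list and comparison, and the 3 genes nearest to *Atf4*. Some list genes that the rule named are not reported here. ESC, feeder fibroblast and primitive endoderm markers are given as sums. Promoter windows come from RefSeq (GRCm38.p6).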

Additional observations from a re-analysis of the deposited data

How the results depend on the processing

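Leaving out 1 culture in turn, between 8 and 9 members fell and 0 rose in nascent RNA, 5 fell and 1 rose in total RNA, and between 4 and 5 rose and between 0 and 1 fell for the ratio. Of the 14305 to 14387 genes tested in these fits, 2561 to 2871 fell and 2428 to 2933 rose in nascent RNA. In total RNA 4023 to 4198 fell and 2461 to 2849 rose, and for the ratio 358 to 509 rose and 668 to 1109 fell. The fall of the *Asns* ratio was lost without wild-type culture 1 or 2, clone 1 culture 2, or clone 2 culture 1 or 2, and the count of members with a lower ratio was also 0 with TMM within each assay, no filter beyond 1 count, 3 CPM in every library of an assay, the 4sU single-end run alone, clone 1 or clone 2 alone, and chromosome 6 left out, which removes *Asns*. With an absolute log2 fold change above 1, 2 members fell and 0 rose in nascent RNA, 1 fell and 0 rose in total RNA, and 2 rose and 0 fell for the ratio. With library size only, 1 member rose in nascent RNA and 2 in total RNA. With culture as a replicate block, 5 members rose and 1 fell for the ratio, and no call changed. The replicate numbers of wild type and clones share only a number, with correlations of deviations between -0.0618 and 0.140, and with the number as a replicate block the members' counts were 9, 5, 1, 5 and 1, as without it. Of all tested genes, 2984 rose and 3050 fell in nascent RNA, against 5285 and 1838 with library size only. In total RNA 2829 rose and 4498 fell, against 3606 and 3495 with TMM within each assay and 4277 and 2814 with library size only. For the ratio 550 rose and 1246 fell, against 734 and 577 with TMM within each assay, 601 and 763 with DESeq2 and 462 and 1820 with library size only. Members that did not pass changed sign as follows. Total *Atf5* was 0.04 with library size only. Total *Ddit3* was 0.05 with TMM within each assay, 0.12 with library size only, 0.06 with no filter beyond 1 count, 0.06 with clone 2 alone, and, leaving out 1 culture, between -0.13 and 0.06, above 0 without wild-type culture 2 (0.03) or clone 1 culture 2. Nascent *Asns* was -0.000614 with DESeq2 and -0.00180 without wild-type culture 1. The ratio of *Psat1* was -0.03 with library size only, -0.02 with the single-end run, -0.05 with clone 2 alone and, leaving out 1 culture, between -0.01 and 0.08, below 0 without wild-type culture 3 or clone 1 culture 1. Total *Ppp1r15a* was 0.03 with TMM within each assay, 0.10 with library size only, 0.04 with no filter and 0.00284 with clone 1 alone. Among the related lists, library size only gave 12 rises of the eIF2 list, 5 of transporters, 5 of other effectors and 10 of the XBP1 and ATF6 list in nascent RNA, with 2 falls of bZIP factors, 8 of the enzymes and 3 of the XBP1 and ATF6 list. In total RNA it gave 7 rises of the eIF2 list, 8 of transporters and 10 of the XBP1 and ATF6 list, with 1 fall of bZIP factors and 2 of the XBP1 and ATF6 list, and for the ratio 1 fall of bZIP factors, 5 of the enzymes and 2 of the XBP1 and ATF6 list. TMM within each assay gave 6, 7 and 7 rises of the eIF2, transporter and XBP1 and ATF6 lists and 2 falls of the last in total RNA, and 3, 1 and 1 falls of the eIF2, enzyme and other effector lists for the ratio. DESeq2 gave 3 falls of the eIF2 list for the ratio. The cause of these moves was not tested. The counts of *Ddit3*, *Phgdh*, *Cebpa*, *Cebpb* and *Cebpd* limit the precision of their fold changes.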
